A study of Mus musculus with 54 samples.

Results

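Mouse myogenic progenitors expressing emerin that lacks residues 95 to 99 (Δ95–99) were compared with wildtype progenitors at day 0, when cells had been plated at high density but had not yet been switched to differentiation medium. The comparison covers 6 of the 54 samples of the series, 3 labelled replicates per line, and every one of the 17495 genes listed in the deposited table for this pair of groups was described. Members were chosen by that table alone, which holds one value per gene for each group. Both lines are H2K cells, conditionally immortal myogenic progenitors that grow in medium with γ-interferon. They fuse into myotubes after a switch to differentiation medium, with less serum, no added γ-interferon and a higher temperature. The wildtype line carries the normal Emd gene. The Δ95–99 line was made from progenitors of emerin-null (EMD-/y) mice by lentiviral transduction with the deletion mutant and puromycin selection, and is a single line. Per the labels the mutant lines were kept in puromycin while they grew and differentiated, and 297000 mutant cells against 232000 wildtype cells were seeded per well. The deletion, the null background, the origin of the 2 lines, transduction, puromycin and seeding therefore cannot be told apart. Other lines set beside these below share the null background. EMD-/y is untransduced and was seeded at 232000 cells per well. S54F and Q133H were transduced with emerin carrying these mutations, selected with puromycin and seeded at 297000. The +EMD line was transduced with wildtype emerin and selected with puromycin, and its seeding number is not stated.

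Emerin is a LEM-domain protein of the inner nuclear membrane that binds lamins, chromatin regulators and signalling proteins, and its loss or mutation causes X-linked Emery–Dreifuss muscular dystrophy. Myogenic progenitors move from Pax7 and Myf5 expression through Myod1 and Myog to Mef2 factors, and only then assemble the sarcomere, the repeating actin and myosin unit of contraction. At day 0 progenitors are still proliferative, so that contractile genes are read here in cells before the formal start of differentiation.

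The values are normalised read counts given once per group, so no spread between samples, error or p-value accompanies any of them, and each comparison below describes these 2 groups of libraries. Where the read counts were lowest, the average of both values took exactly 6 levels, those of 1 read in 1 of 6 libraries, and the 1753 lowest averages were all whole-number sums of these levels within 1e-05. A gene with 1 read in 1 library still had a value in both groups, and the 2 values of such genes differed by at most 0.19 on the log2 scale. Ratios of genes with few reads are thus closer to 1 than their reads alone would give, and how the provider computed the group values is not given in the sources used here. Size factors of the 6 libraries lay between 0.958 and 1.06, and the 10 highest genes took 6.53% of the summed values in wildtype and 6.59% in Δ95–99. Ratios are given below as log2 of Δ95–99 over wildtype after adding 1 to both values. A gene passed the filter when its 2 values averaged at least 10, and 13110 genes did. Of these, 675 (5.15%) were at least 2-fold higher and 823 (6.28%) at least 2-fold lower in Δ95–99, and the median log2 ratio was -0.004. The share of genes past 2-fold was 32.7% among genes averaging 10 to 100, 8.22% from 100 to 1000, and 3.36% above 1000. Low genes thus made up most of the calls, and in 451 of the 1498 called genes one group lay below 10. They were among 563 such genes that passed, since a gene low in one group passes only through the other. Just inside the threshold, Smoc1 had a log2 ratio of 1.0005 and Prrt3 one of -1.0001, and just outside it Polr2k had 0.9998 and Pdgfra -0.9986.

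**Figure D1:**
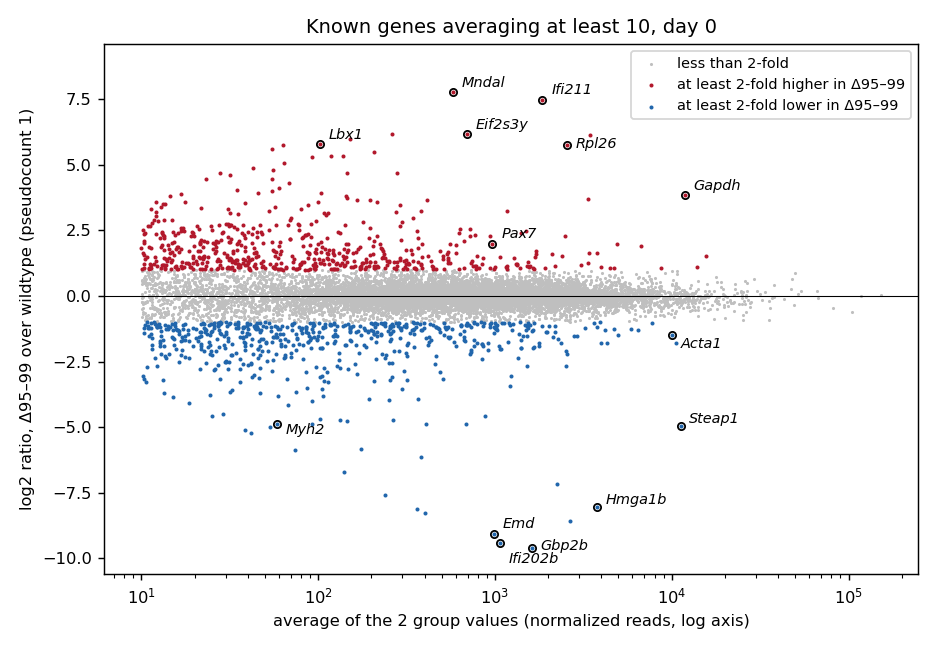
Log2 ratio of Δ95–99 over wildtype at day 0 against the average of the 2 group values (normalised reads, log axis) for genes with a known symbol or numeric identifier that averaged at least 10. Points are genes, red at least 2-fold higher and blue at least 2-fold lower in Δ95–99. Emd, Gbp2b and Ifi202b lie below -9, and Mndal and Ifi211 lie above 7.

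The targeted gene was examined first. Emd, on chromosome X (74254674 to 74261563 in GRCm38), had a value of 1962 in wildtype and 2.67 in Δ95–99, a log2 ratio of -9.06. The value in Δ95–99 was as low as those of other lines of emerin-null background in their own tables, at 3.52 in EMD-/y, 2.08 in S54F and 1.97 in Q133H. It was 1.42 in +EMD, the null line transduced with wildtype emerin, so that the row for Emd did not register the transduced emerin in that line. The level of the Δ95–99 transgene was not analysed here. Other genes of the nuclear envelope were then counted. Of 18 lamina, LEM-domain and LINC-complex genes that passed, Emd was the only one past 2-fold, beside 11.4% of all genes that passed. The median log2 ratio of the 18 was -0.031, and the highest was 0.36. Lmna, which encodes lamins A and C, had 26643 in wildtype and 25688 in Δ95–99.

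The contractile genes had the lowest median of the 33 gene lists described here. Of 42 genes encoding sarcomere and contraction proteins, 41 passed. Of these, 27 were at least 2-fold lower in Δ95–99 and 0 at least 2-fold higher, beside 6.28% and 5.15% of all genes. The median log2 ratio of the 41 was -1.18, against -0.004 over all genes that passed, and 40 of the 41 were below 0. In bulk RNA, fewer cells that express such genes and less RNA per cell cannot be told apart. Myh3, the embryonic myosin heavy chain, had a value of 9159.5 in wildtype and 3768 in Δ95–99 (log2 ratio -1.28). Acta1, the skeletal muscle α-actin, had 14752 in wildtype and 5215 in Δ95–99 (-1.50). Myl4, an embryonic and atrial myosin light chain, had 2235 against 570.3 (-1.97). These 3 transcripts were therefore between 2.43-fold and 3.91-fold lower in Δ95–99. The furthest below wildtype was Myh2, the fast IIa myosin heavy chain, at 114 against 2.92 (-4.87). Part of the Myh2 transcript is near-identical to that of another gene, so its reads could have been divided. Myh2, and Myh4 at 23.4 against 3.97, averaged at least 10 only through wildtype. Mybpc1, which encodes a thick-filament binding protein, had 151 against 19.5 (-2.89). Tcap, the titin cap of the Z-disc, had 53.5 against 10.5 (-2.24). The muscle creatine kinase Ckm had 176 against 50.2 (-1.78).

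Not every contractile gene was lower to that extent. Actc1, the cardiac α-actin that is used early in muscle formation, had 6219.8 in wildtype and 5458 in Δ95–99 (-0.19). Ttn, the giant spring protein titin, had 5223 against 3133 (-0.74). Of the 41 members, 10 have a near-identical copy among annotated transcripts.

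Promoters of these genes were read to show the letters on which myogenic factors are known to act. Myod1, Myog and Myf5 bind E-boxes, of which CAGCTG is a common muscle form and reads the same on both strands, and Mef2c binds the AT-rich MEF2 motif. Windows of 250 bases before the annotated start were taken from RefSeq for GRCm38.p6, and 20 of the 27 genes that were at least 2-fold lower had one. CAGCTG occurred in at least 1 window of 9 of these 20 genes (45.0%). Beside this stand 14.4% of the 9922 genes with a window that passed the filter and 14.7% of all 27025 genes with a window. The MEF2 motif occurred in 4 of the 20 (20.0%), beside 1.94% of genes that passed. Among the 32 sarcomere genes with a window, lower or not, CAGCTG occurred in 14 (43.8%) and the MEF2 motif in 6 (18.8%). Both shares were close to those of the lower members. A match is a run of letters and does not show that a factor was bound. Shown are the 4 with the highest group values, not divided by length, among the lower genes that hold either motif, 5′ to 3′ on the gene's strand, with CAGCTG in capitals. The E-box begins 221 bases before the start of Acta1, 51 before that of Mylpf (a fast myosin light chain), 68 before that of Tnni1 (slow troponin I) and 79 before that of Mybph (a myosin binding protein).
Acta1 (chr8:123894776-123895025, minus strand): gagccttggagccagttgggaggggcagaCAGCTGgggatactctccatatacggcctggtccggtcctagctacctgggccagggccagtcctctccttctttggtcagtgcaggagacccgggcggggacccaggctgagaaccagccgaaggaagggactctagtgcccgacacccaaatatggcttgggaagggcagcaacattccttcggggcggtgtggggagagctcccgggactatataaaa
Mylpf (chr7:127211358-127211607, plus strand): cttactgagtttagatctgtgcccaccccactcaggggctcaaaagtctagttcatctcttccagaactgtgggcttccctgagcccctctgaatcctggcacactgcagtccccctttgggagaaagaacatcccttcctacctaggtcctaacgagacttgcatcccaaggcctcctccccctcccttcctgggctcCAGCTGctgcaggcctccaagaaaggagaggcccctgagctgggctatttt
Tnni1 (chr1:135799171-135799420, plus strand): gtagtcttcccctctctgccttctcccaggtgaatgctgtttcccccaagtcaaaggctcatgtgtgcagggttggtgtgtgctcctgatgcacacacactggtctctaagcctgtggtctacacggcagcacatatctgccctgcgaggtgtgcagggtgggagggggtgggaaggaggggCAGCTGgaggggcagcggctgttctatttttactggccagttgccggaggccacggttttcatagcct
Mybph (chr1:134193198-134193447, plus strand): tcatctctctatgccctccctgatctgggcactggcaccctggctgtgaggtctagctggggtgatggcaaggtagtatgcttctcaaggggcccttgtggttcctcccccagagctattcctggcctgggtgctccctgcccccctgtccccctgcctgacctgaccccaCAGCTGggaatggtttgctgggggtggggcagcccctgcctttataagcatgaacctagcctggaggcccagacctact
In values, Mylpf had 3151 in wildtype and 1207 in Δ95–99 (-1.38), Tnni1 2175 against 1000.5 (-1.12), and Mybph 1708 against 809.8 (-1.08).

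The factors that drive myogenesis lay on both sides of wildtype. Of 18 that passed, 2 were at least 2-fold higher and 1 was at least 2-fold lower, beside 5.15% and 6.28% of all genes. Their median log2 ratio was -0.040. Pax7, the marker of satellite cells, had a value of 388 in wildtype and 1549 in Δ95–99 (1.99). Myf5, the early determination factor, had 226 against 887 (1.97). Both early factors were thus close to 4-fold higher. Myod1, the determination factor, had 14193 against 11922 (-0.25). Myog, which starts terminal differentiation, had 7837 against 6483 (-0.27). Neither of these passed 2-fold. Mef2c, a late cofactor of Myod1 and Myog at contractile genes, was lower, at 1360.3 against 363 (-1.90). Markers of myogenic progenitors were abundant in both lines: all 12 listed passed, with averages from 557 to 13083 and summed values of 75082 in wildtype and 64567 in Δ95–99.

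**Figure D2:**
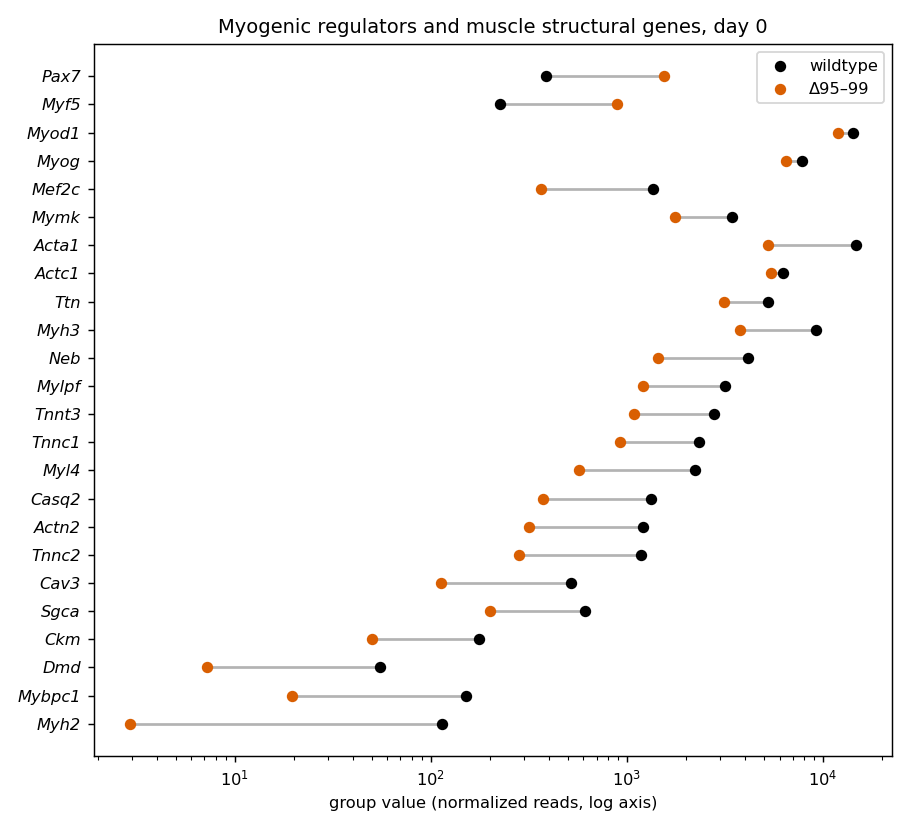
Group values (normalised reads, log axis) of myogenic regulators and muscle structural genes in wildtype (black) and Δ95–99 (orange) at day 0; each point is 1 group value. Pax7 and Myf5 lie to the right in Δ95–99, Myod1, Myog and Actc1 nearly coincide, and Mef2c and most of the structural genes lie to the left.

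Genes of the muscle membrane and of fusion were counted next. Of 13 genes of the dystrophin-glycoprotein complex, which ties the cytoskeleton to the matrix, 6 were at least 2-fold lower, 0 were higher and 7 were within 2-fold, with a median of -0.56, beside 6.28% lower and 5.15% higher among all genes that passed. Dmd, dystrophin, had 54.8 in wildtype and 7.21 in Δ95–99 (-2.77), and averaged at least 10 only through wildtype. Sgca, α-sarcoglycan, had 612 against 199.8 (-1.61). Lama2, the laminin chain bound by this complex, did not pass 2-fold, at 1962 against 1465 (-0.42). Among 19 genes of fusion and adhesion, 1 was higher and 2 were lower. Cav3, the muscle caveolin, had 518 against 113 (-2.18). Capn3, a muscle calpain, had 72.7 against 22.5 (-1.65). The fusogen Mymk lay just short of 2-fold, at 3452 against 1764 (-0.97), whereas its partner Mymx was higher, at 100.2 against 223 (1.15). Cdh15, M-cadherin, differed little, at 3403 against 4558 (0.42).

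The contractile genes were then set beside the later days, which come from other libraries of the same 2 lines. At day 1, all 41 were at least 2-fold lower in Δ95–99, with a median log2 ratio of -3.64, while 11.4% of all genes that passed that day were lower. At day 2, 32 of 41 were lower with a median of -1.40, beside 8.46% of all genes. In the other lines at day 0, each set against the same wildtype libraries, the medians of the same 41 genes were 0.76 in EMD-/y, 0.27 in S54F, -0.25 in Q133H and -0.71 in +EMD. In EMD-/y, 8 of them were at least 2-fold higher and 1 lower, beside 4.55% and 3.56% of all genes that passed there. In S54F 2 were higher and 2 lower, beside 5.26% and 5.69%. In Q133H 2 were higher and 7 lower, beside 5.83% and 7.81%. In +EMD 0 were higher and 15 lower, beside 5.85% and 10.1%, and in Δ95–99 0 were higher and 27 lower, beside 5.15% and 6.28%. The difference between lines was not tested, since all share their wildtype samples and have 1 value per group. Mef2c had log2 ratios of 0.88 in EMD-/y, 0.61 in S54F, 0.36 in Q133H and -3.03 in +EMD. For Pax7 they were 1.21 in EMD-/y, 1.16 in S54F, -6.35 in Q133H and 2.49 in +EMD, and for Myf5 0.55, 0.99, 0.81 and 2.24 in that order.

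**Figure D3:**
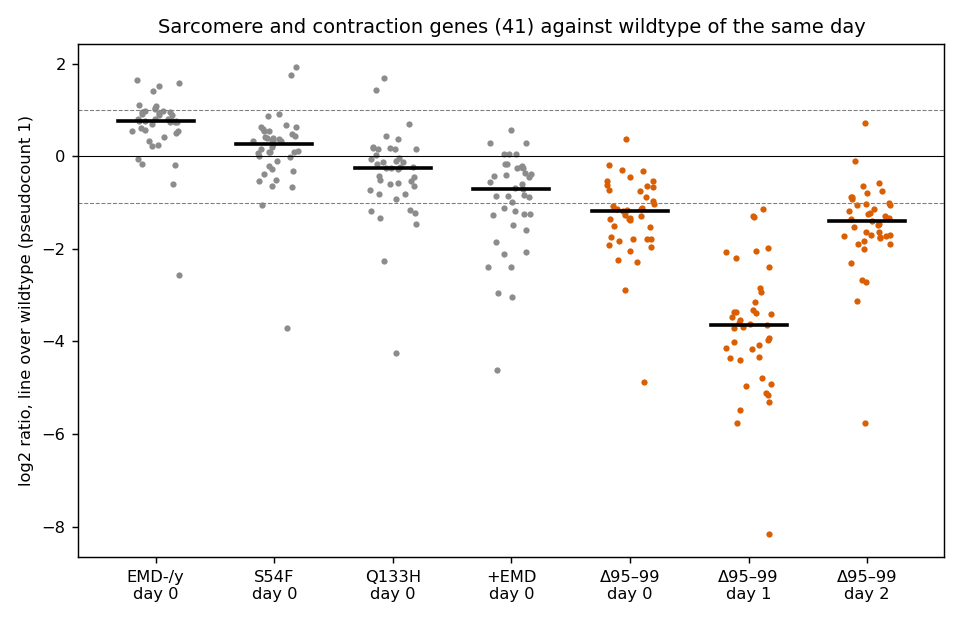
Log2 ratios over wildtype of the same day for the 41 sarcomere and contraction genes that passed at day 0, by line and day; each point is 1 gene, black bars are medians, and dashed lines mark 2-fold. The day 0 medians run from 0.76 in EMD-/y to -1.18 in Δ95–99, and Δ95–99 is lowest at day 1 with -3.64.

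Genes of the cell cycle were near wildtype at day 0. Of 49 cell cycle and replication genes, 48 stayed within 2-fold and 1 was lower, with a median of 0.044, beside 6.28% lower among all genes. Mki67, the proliferation marker, had 10777 in wildtype and 12677 in Δ95–99 (0.23). Ccna2, cyclin A2, had 6485 against 6246 (-0.054). The exception was Pttg1, securin, at 1469.9 against 349 (-2.07). At day 2 the log2 ratios of Mki67 and Ccna2 were 4.92 and 4.37. Among 28 CDK inhibitors, pocket proteins and p53 targets, Cdkn1c (p57) alone was past 2-fold, at 132 against 605 (2.19). Cdkn1a (p21) had 7891 against 7456, and Rb1 had 1822 against 1247 (-0.55). Of 22 histone deacetylase, NCoR and Polycomb genes, 0 were past 2-fold in either direction. Beside this list and that of the CDK inhibitors stand 11.4% past 2-fold among all genes that passed. Hdac3, which emerin binds, had 2214 against 1939 (-0.19).

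**Figure D4:**
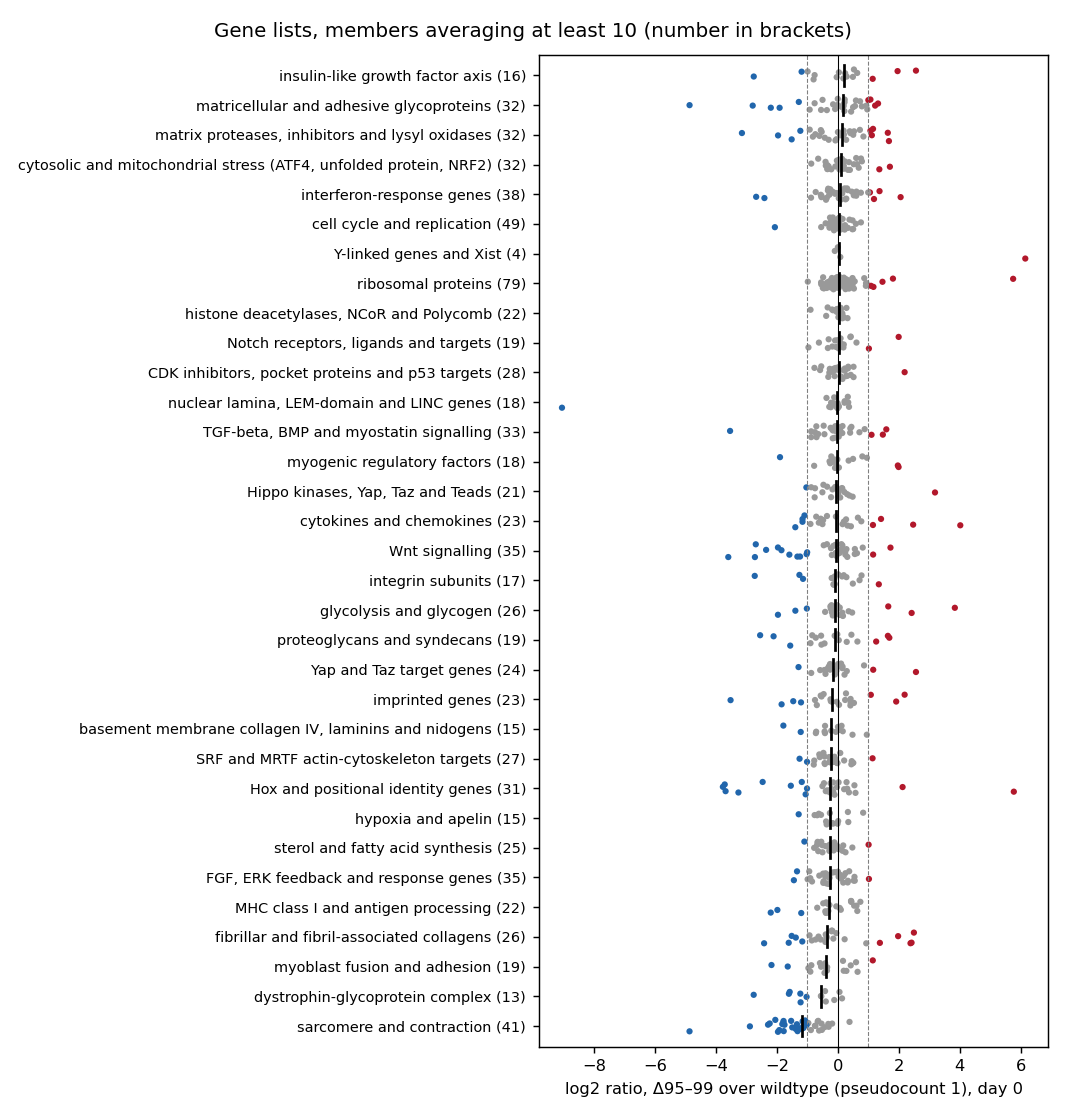
Log2 ratios of Δ95–99 over wildtype at day 0 for the members of 33 gene lists that averaged at least 10 (number in brackets), ordered by median (black bar). Red and blue points are at least 2-fold higher and lower. The sarcomere list has the lowest median, -1.18, followed by the dystrophin-glycoprotein complex at -0.56.

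Matrix genes differed in both directions. Of 26 fibrillar and fibril-associated collagens that passed, 5 were higher and 5 lower, beside 5.15% and 6.28% of all genes. Col6a3, a chain of the microfibrillar collagen VI, had 450.2 in wildtype and 2356 in Δ95–99 (2.38). Col11a1, a chain that nucleates fibrils, had 156 against 616 (1.98). Col1a1, the main chain of collagen I, was lower, at 4345 against 1517 (-1.52). Col3a1 did not pass 2-fold, at 23479.5 against 18198 (-0.37). Col5a1 and Col5a2, chains of collagen V, had log2 ratios of -0.18 and -0.86. Of 15 basement membrane genes 2 were lower, Nid2 (nidogen 2) at 16352 against 4726 (-1.79) and Col4a5 at 255 against 109 (-1.22). Col4a1 had 11463 against 10953 (-0.066).

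Of 32 matricellular and adhesive glycoproteins, 4 were higher and 5 lower. Beside this and the other lists of this paragraph stand 5.15% higher and 6.28% lower among all genes that passed. Efemp1, fibulin-3, had 788 in wildtype and 26.0 in Δ95–99 (-4.87). Thbs2, thrombospondin 2, had 1181 against 256 (-2.20). In contrast Ltbp2, a latent TGF-β binding protein, was higher, at 424 against 1058 (1.32). Fn1, fibronectin, had 32341 against 43695 (0.43) and stayed within 2-fold. Among 19 proteoglycans and syndecans 3 were higher and 3 lower. Ogn, osteoglycin, had 4124 against 953 (-2.11), and Cspg4 (NG2) had 76.4 against 241 (1.64). The heparan sulphate proteoglycan Sdc4 had 4592 against 4532. Among 32 matrix proteases, inhibitors and lysyl oxidases 5 were higher and 4 lower. Mmp2, a gelatinase, had 1839 against 5729.5 (1.64). Adamts2, the procollagen N-propeptidase, had 915 against 102 (-3.15). The aggrecanases Adamts5, at 2226 against 569 (-1.97), and Adamts4, at 2256 against 787 (-1.52), were also lower. Of 17 integrin subunits, 1 was higher and 3 lower. Itgb7 had 233 against 34.3 (-2.73), and the muscle integrin subunits Itga7 and Itgb1 had log2 ratios of 0.28 and 0.19.

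Of 35 Wnt signalling genes that passed, 11 were lower and 2 higher, beside 6.28% and 5.15% of all genes, with a median of -0.075. Among ligands, Wnt4 had 169 in wildtype and 25.2 in Δ95–99 (-2.70). Wnt10a had 60.9 against 4.10 (-3.60). Among the lower genes, Wnt10a and Wnt6 (19.3 against 2.08) averaged at least 10 only through wildtype, so they could pass only by differing. The non-canonical ligand Wnt5a was higher, at 226 against 752 (1.73). Ligands thus lay on both sides. The secreted antagonist Sfrp2 had 400.3 against 77.3 (-2.36). Among receptors Fzd4 was higher, at 120.3 against 269.6 (1.16). Ctnnb1 (β-catenin) had 12404 against 11773 (-0.075), and the target Axin2 was low in both, at 8.61 against 13.8.

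Of 33 TGF-β, BMP and myostatin genes 3 were higher and 1 lower. Beside this and the other lists of this paragraph stand 5.15% higher and 6.28% lower among all genes that passed. The ligand Bmp4 had 193 in wildtype and 15.7 in Δ95–99 (-3.54). The secreted BMP antagonist Grem1 was higher, at 565 against 1573 (1.48). Tgfb1 was level, at 1578 against 1560.2. Among 16 genes of the insulin-like growth factor axis 3 were higher and 2 lower. Igfbp5, a binding protein of the myogenic lineage, had 2009.9 against 7823 (1.96). Igfbp3 had 184 against 1091 (2.56). The ligand Igf1 had 134 against 298 (1.14), and the ligand Igf2 had 14867 against 21418 (0.53). The mRNA-binding protein Igf2bp1 was lower, at 188 against 26.8 (-2.76). Of 19 Notch genes 2 were higher and 0 lower. The target Hey1 had 88.8 against 357 (2.00), while the target Hes1 had 672 against 768 (0.19) and the receptor Notch1 3588 against 3448.

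Of 21 Hippo kinase, Yap, Taz and Tead genes 1 was higher and 1 lower, beside 5.15% and 6.28% of all genes. Counts in the other lists of this paragraph also lay near these shares. Wwc1 (Kibra), an upstream activator of the pathway, had 53.4 in wildtype and 495 in Δ95–99 (3.19). Tead3 had 1354 against 660.3 (-1.04), and Yap1 had 2787 against 2838. Of 24 Yap and Taz targets 2 were higher and 1 lower, and Ccn1 and Ccn2 had log2 ratios of -0.003 and 0.22. Of 27 targets of SRF and MRTF 1 was higher and 2 lower. Myl9, a regulatory light chain of non-muscle myosin, had 6645 against 2776 (-1.26), and Myh10, a non-muscle myosin heavy chain, had 982 against 2162 (1.14). Among 35 FGF and ERK genes 1 was higher and 2 lower. The ERK phosphatase Dusp6 had 771 against 1565 (1.02), and the immediate early genes Fos and Egr3 had log2 ratios of -1.34 and -1.45.

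Both lines were grown with γ-interferon, and most interferon genes were alike. Of 38 that passed, 4 were higher and 2 lower, with a median of 0.065. Beside this and the other lists of this paragraph stand 5.15% higher and 6.28% lower among all genes that passed. The guanylate-binding protein Gbp5 was lower, at 4348 in wildtype against 676 in Δ95–99 (-2.68). The chemokine Cxcl9 was also lower, at 1431 against 268 (-2.41). Genes also induced by type I interferon were higher, with Ifit1 at 163 against 421 (1.37), Ifit3 at 149.5 against 341 (1.19), and Rsad2 at 156 against 324 (1.05). Of 22 genes of MHC class I and antigen processing 0 were higher and 3 lower. These 3 were Cd74, the invariant chain, at 4204 against 910.3 (-2.21), H2-Aa at 1389.9 against 603 (-1.20), and H2-T10 at 2628 against 662 (-1.99). Cd74 and H2-Aa belong to the class II pathway, and the classical class I genes H2-K1 and H2-D1 had log2 ratios of -0.31 and 0.060. Of 23 cytokines and chemokines 4 were higher and 4 lower. Tnfrsf11b, osteoprotegerin, had 3.17 against 66.7 (4.02), Cxcl12 had 2021 against 944 (-1.10), and Lif had 61.6 against 166 (1.42). Tnfrsf11b averaged at least 10 only through Δ95–99, so it could pass only by differing.

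Hox and related genes mark the position of a cell in the body. Of 31 that passed, 9 were lower and 2 higher, beside 6.28% and 5.15% of all genes. In the HoxB cluster, Hoxb2 had 65.9 in wildtype and 5.95 in Δ95–99 (-3.27). Hoxb3 had 88.2 against 5.78 (-3.72), Hoxb4 46.2 against 2.44 (-3.78), and Hoxb7 25.7 against 1.07 (-3.69). All 4 averaged at least 10 only through wildtype, since their values in Δ95–99 lay below 10, so that a gene of this kind could pass only by differing. Hoxa10 and Hoxc10 were near wildtype, at 405 against 341 and 1176 against 1090.0. Lbx1, a factor of migrating limb muscle precursors, had 2.68 against 201 (5.78), and Tbx1, a factor of branchial muscle, had 109.5 against 481 (2.12). Lbx1 averaged at least 10 only through Δ95–99, so it too could pass only by differing. In EMD-/y, the parent of the Δ95–99 line, Hoxb4 and Lbx1 had log2 ratios of -2.50 and 4.81. Of 23 imprinted genes 3 were higher and 4 lower. Mest had 2799 against 10553 (1.91) and Dio3, a thyroid hormone deiodinase, 161 against 13.0 (-3.53). Among Y-linked genes, Ddx3y, Kdm5d and Uty differed by 0.10 at most on the log2 scale, with Ddx3y at 1289 against 1362. Eif2s3y stood apart, at 18.3 against 1370.5 (6.15), and its values in the other lines of emerin-null background, +EMD among them, lay between 1289 and 1572.

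Of 26 glycolysis and glycogen genes 3 were higher and 3 lower, beside 5.15% and 6.28% of all genes, and those lower were muscle isoforms. Eno3, the muscle enolase, had 4860.2 in wildtype and 2397 in Δ95–99 (-1.02). Pygm, the muscle glycogen phosphorylase, had 377 against 143 (-1.40), and Pgam2, the muscle phosphoglycerate mutase, 145 against 36.3 (-1.97). Ldha had 22377 against 20234 (-0.15). Of 32 stress genes 2 were higher, Gsr (glutathione reductase) at 804 against 2628 (1.71) and the cystine carrier Slc7a11 at 175 against 452 (1.36). Of 25 genes of sterol and fatty acid synthesis 1 was higher and 1 lower. Of 15 hypoxia and apelin genes Ndrg1 alone was lower, at 550.0 against 225 (-1.29). Of 79 ribosomal protein genes 5 were higher and 0 lower, with a median of 0.032, and 58 of the 79 have near-identical copies. Rpl26 had 91.6 against 5001 (5.76) and Rps29 100.1 against 353 (1.81), whereas Rplp0 had 20797 against 24736 (0.25).

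The largest ratios among known genes averaging at least 100 were mostly not muscle genes. The 3 lowest were Gbp2b, an interferon-inducible GTPase, at 3227 against 3.19 (-9.59), Ifi202b, an interferon-inducible DNA-binding protein, at 2141 against 2.14 (-9.42), and Emd. The 2 highest were Mndal at 4.27 against 1148 (7.77) and Ifi211 at 19.7 against 3696 (7.48), both of the same interferon-inducible family as Ifi202b. The family lies in one cluster on chromosome 1. Within 1 Mb of Mndal, 7 of 10 genes that passed were past 2-fold, among them Aim2 and Ifi205, beside 12.8% on the whole of chromosome 1. The window was centred on the gene with the highest ratio and counts it. Windows of the same width held 2 of 10 around Gbp2b and 8 of 72 around H2-Q1. Neither direction was shared by all of the cluster, since Ifi202b was lower and Mndal, Ifi211 and Ifi205 were higher. The same 4 genes had log2 ratios of -9.16, 7.68, 7.15 and 4.28 in EMD-/y. Around Emd itself, 7 of 60 genes within 5 Mb were past 2-fold, beside 12.5% on chromosome X.

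Others at the extremes were Steap1, a metalloreductase, at 21734 against 700.1 (-4.95), the calcium channel Cacna1h at 344 against 4.98 (-5.85), and the neuronal protein Stmn2 at 1329 against 44.1 (-4.88). Higher were the unconventional myosin Myo7a at 6.10 against 515 (6.18), the phosphatase Ptprm at 4.75 against 231 (5.34), and Aldh1a1, a retinal dehydrogenase, at 9.81 against 279.9 (4.70). For Aldh1a1 the other lines had lower ratios, of 1.26 in EMD-/y, -0.55 in S54F, 3.88 in Q133H and -1.13 in +EMD. For Myo7a, in contrast, the other lines lay between 4.82 and 6.60. These differences between lines were not tested. Among the genes furthest below wildtype in absolute level were Actg1, a cytoplasmic actin, at 126656 against 83857 (-0.59), Actb at 94624 against 68054 (-0.48), Nes, nestin, at 46818 against 24624 (-0.93), and Col1a2 at 33088 against 17341 (-0.93). Among those furthest above it were Hspa8, a heat shock cognate, at 35257 against 64952 (0.88), B2m at 37696 against 58645 (0.64), and Gstp3 at 8071 against 22981 (1.51). Of the 10 largest differences of level, 5 in each direction, Gstp3, Steap1 and Gapdh were past 2-fold.

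Several of the extreme genes share long stretches of sequence with another gene, between which reads could be divided. Hmga1b had 7526 in wildtype and 27.6 in Δ95–99 (-8.04), while its copy Hmga1 had 8785 against 18891. Summed, the pair had 16310 against 18919, a log2 ratio of 0.21. Eno1b had 4439 against 29.8 (-7.17), and with Eno1 the sum was 28476 against 26598 (-0.10). The histone gene H2ac24 had 720.2 against 1.57 (-8.13), and with its 11 listed copies 1014 against 860.1 (-0.24). H2-Q1 had 752 against 9.57 (-6.15), and with 4 listed copies 6689 against 8644 (0.37). These 4 genes were at least 71-fold lower alone and within 2-fold with their copies. Ifi211 with Ifi204 was still past 2-fold, at 2629 against 7347 (1.48). Tcfl5, a transcription factor gene, had 277 against 1.66 (-6.71), and with its listed partner Col9a3 282.8 against 11.7 (-4.48). For Kpna2, Rpl26 and Gapdh the copies found are not listed in the table and could not be summed. Gapdh, a glycolytic enzyme often taken as a reference, had 1541 against 22093 (3.84) at day 0, and its log2 ratio was -0.061 at day 1 and 1.21 at day 2.

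**Figure D5:**
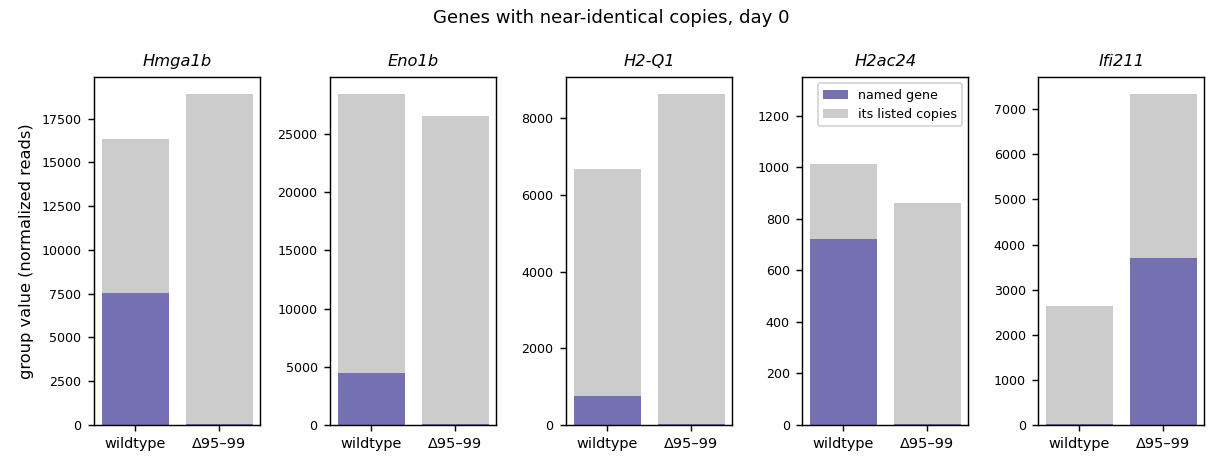
Group values (normalised reads) at day 0 of 5 genes at the extremes (purple) stacked with those of their listed near-identical copies (grey), each panel with its own axis from 0. For Hmga1b, Eno1b, H2-Q1 and H2ac24 the total bars of wildtype and Δ95–99 differ by less than 2-fold although the purple part is near 0 in Δ95–99, and for Ifi211 the total is higher in Δ95–99.

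Part of the calls fell on genes without a name. The provider predicted 1543 of the listed genes from the reads, 731 of them passed, and 304 (41.6%) were past 2-fold, 211 of them lower, beside 9.65% of the other genes and 11.4% of all genes that passed. The share of predicted genes past 2-fold was 25.9% in EMD-/y, beside 8.1% of all genes, 39.1% in S54F (10.9%), 44.9% in Q133H (13.6%) and 40.5% in +EMD (16.0%). In Δ95–99 it was 50.3% at day 1, beside 19.8%, and 37.6% at day 2, beside 21.0%. H2ac24, Rps13, Rps29 and Gapdh had log2 ratios of opposite sign at day 0 and day 1. In tables of each line's own transition, H2ac24 was 692.8 at day 0 and 1.24 at day 1 in wildtype, and 1.66 at day 0 and 497.9 at day 1 in Δ95–99. Rps13 was 654.6 and 1526 in wildtype, and 1969 and 361.4 in Δ95–99. The labels name no batch, and the part of the library preparation in these results was not tested. Without predicted genes, 582 genes were higher and 612 lower.

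Many of the day 0 differences were present again in the later libraries. Of the 675 genes higher at day 0, 385 (57.0%) were at least 2-fold higher at day 1, beside 8.36% of all genes that passed at day 1, and 36 were at least 2-fold lower. Of the 823 lower genes 518 (62.9%) were lower at day 1, beside 11.4%, and 76 were higher. At day 2, 381 (56.4%) of the higher genes were higher, beside 12.5%, and 409 (49.7%) of the lower genes were lower, beside 8.46%. In all 3 comparisons 298 genes were higher and 372 lower, which are 44.1% and 45.2% of the day 0 genes. Of these, 21 and 83 were genes predicted by the provider. A share over all genes was not computed for this overlap. Among 151 named genes past 2-fold at day 0, 15 had the opposite sign at day 1, and 5 of these were past 2-fold in that direction, among them Mymx (-1.40) and the matrix protein Postn (1.07 at day 0 and -2.69 at day 1).

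Markers of other cell types were counted in both groups, and their part in the results was not tested. Beside all lists of this paragraph stand 5.15% higher and 6.28% lower among all genes that passed. Of 6 endothelial markers 1 passed, with summed values of 39.7 in wildtype and 37.7 in Δ95–99. Of 6 immune markers 2 passed, with sums of 28.4 and 41.2, and of 5 glial markers 2 passed, with sums of 29.6 and 28.7. Emcn, Tyrobp and Sox10 were not listed. Of 8 fibroblast or fibro-adipogenic markers 4 passed, and the summed values were 5080 and 3700, with Dcn past 2-fold, at 25.9 against 8.07 (-1.57). Dcn averaged at least 10 only through wildtype, and the highest log2 ratio of these 4 was 0.91. Of 6 smooth muscle or pericyte markers 5 passed, with sums of 40929 and 39324, nearly all of it Acta2, which myogenic cells also express. Of these 5, Rgs5 (2.36) and Cspg4 (1.64) were past 2-fold higher, and the lowest log2 ratio was -0.84. Rgs5, at 2.68 against 17.9, averaged at least 10 only through Δ95–99. Of 5 adipocyte markers 2 passed (1164 and 612.3), with Cebpa past 2-fold lower at 1106 against 551.9, and of 6 cartilage or bone markers 3 passed (1998 and 2631).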

How the data were processed

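RNA of 6 samples, 3 labelled replicates of each line, was sequenced by poly-A selection with paired reads. Per the labels there were 2 biological replicates with 3 technical replicates each, so it is unclear which of the 3 libraries of a group are separate cultures. Per the submitters' processing notes and the study's methods, reads were aligned with HISAT2 to mm10 and normalised and compared with DESeq2. The values used are signal values, the normalised read counts deposited by the authors as 1 pooled value per group. The table holds 0 columns of single samples, so no test, SD or interval was possible and no replicate could be examined. The deposited fold changes, p-values and adjusted p-values are the authors' own comparisons and were not used. Counts were recomputed with another pseudocount, filter, fold and scaling and without predicted genes, and those of day 0 also from other tables. Leaving out genes with near-identical copies was added after seeing the data.

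From the values, log2 ratios were computed with a pseudocount of 1 in Python 3.11.15 with pandas 2.3.3. A gene was called past 2-fold when its absolute log2 ratio was at least 1 and its 2 values averaged at least 10. The 2-fold call was run on noise-free values with changes set in advance, all in genes with wildtype values of at least 100. That run covers the arithmetic only, not noise or genes with few reads. Symbols and coordinates came from RefSeq (GRCm38.p6), with a symbol for 15929 of 15952 numeric identifiers. Near-identical copies were found by aligning transcripts with minimap2 2.31-r1302. Levels are not divided by gene length, so their order between genes depends on length too.

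The comparison and the gene lists were chosen with earlier results of these data known. Named genes were Emd, the 12 highest and 12 lowest ratios among known genes averaging at least 100, the 5 largest differences of level in each direction, and, of each list, up to 4 members furthest past 2-fold in each direction with fixed anchor genes. Mylpf, Tnni1, Mybph, Hmga1, Ifi204, Aim2, Col9a3, Col5a1, Col5a2, the genes nearest the threshold and further muscle genes in the plot of group values were added after their values were seen. Some genes that the rule names are not reported here.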

Additional observations from a re-analysis of the deposited data

How the results depend on the processing

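No paired analysis was possible because the table gives 1 pooled value per group, and for the same reason no replicate could be left out. The main counts were 675 higher and 823 lower. They were 696 and 841 with no pseudocount, 522 and 672 with a pseudocount of 10, 878 and 1044 with no filter, 717 and 786 with both groups scaled to the same sum, 683 and 819 after centring, 582 and 612 without predicted genes, 749 and 825 in the tables of each line's own transition, and 573 and 720 without genes that have near-identical copies. A filter at an average of 100 gave 263 and 388, a 1.5-fold threshold 1358 and 1449, and a 4-fold threshold 229 and 314. The share of the higher genes found again at day 1 (57.0% as reported) was 50.6% with the filter at 100, 48.9% at 4-fold and 61.4% with equal sums. At day 2 (56.4%) it was 47.1%, 49.3% and 60.5% under these settings, 62.4% with no filter and 60.3% without predicted genes. For the lower genes the share at day 1 (62.9%) was 59.2% at 4-fold and 68.5% without predicted genes, and at day 2 (49.7%) it was 45.7% with equal sums. All 151 named genes past 2-fold kept their direction under every setting that lists them, and 143 stayed past 2-fold with a pseudocount of 10. Most settings reuse the same 2 values and could not turn the sign of such a ratio. Only the tables of each line's own transition could, and they come from the same libraries. Depth limits the low genes, whose ratios are closer to 1 than their reads alone would give.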

Other observations

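The share of called genes among known genes that passed ran from 6.4% on chromosome 5 to 13.2% on chromosome 18 over the autosomes and X, and 1 of 4 was called on Y. On chromosome 8, 54 of 680 genes were higher and 13 lower, whereas on chromosome 17, 16 of 612 were higher and 32 lower. The called shares were 9.85% and 7.84%, beside 9.65% of all genes not predicted by the provider, of which 582 were higher and 612 lower. The HoxB genes that missed the filter were lower in value as well, with log2 ratios of -1.93 for Hoxb5, -2.59 for Hoxb6, -1.16 for Hoxb8 and -0.73 for Hoxb9.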
